A study of Homo sapiens with 372 samples.

Results

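The 8 genes described here are ATF4, DDIT3, TRIB3, CHAC1, SESN2, CEBPB, CEBPG and PPP1R15A, which make up the ATF4 and CHOP arm of the cellular stress response. They were selected from earlier results of these data as named symbols, and all 8 of them are among the 9664 genes listed. All 8 were also among the 9655 genes that passed a detection filter, a value above 0 in over 30% of cells in some condition. Since they were chosen with differences between conditions already in view, their levels and differences are a description and carry no test.

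This arm answers a block of protein synthesis. Under endoplasmic reticulum stress, amino acid shortage, heme shortage or viral RNA, kinases phosphorylate the translation initiation factor eIF2. Most translation then slows, while the mRNA of the transcription factor ATF4 is translated better, and ATF4 switches on amino acid transporters, biosynthetic enzymes, tRNA synthetases and DDIT3, which encodes CHOP. CHOP, CEBPB and CEBPG are C/EBP family proteins that pair with each other or with ATF4, and PPP1R15A (GADD34) brings in the phosphatase that undoes the first step.

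Single A2780 cells, an established human ovarian cancer cell line, were measured with full-length Smart-seq2 on the Fluidigm C1 system. The 6 conditions were untreated control (46 cells), paclitaxel at 5 nM for 16 h (56 cells) or 48 h (53 cells), celecoxib at 75 µM for 2 h (63 cells) or 16 h (61 cells), and both drugs together for 16 h (59 cells, the combination). Paclitaxel stabilizes microtubules and celecoxib inhibits cyclooxygenases. The comparisons ask how the arm was expressed after each drug, with time, and after the second drug was added.

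No replicate culture or capture run is named for any condition, so each condition counts as 1 sample and cells are not replicates. The condition and its capture cannot be told apart. No test between conditions was made, and every SD below is a spread over cells. The running number at the end of each sample description was split here into blocks of 96, called index blocks below. Whether a block was a batch is not known. Control cells were in block 4, paclitaxel 16 h in block 1, celecoxib 2 h in block 2 and celecoxib 16 h in block 3. The cells of paclitaxel 48 h were in blocks 2 and 4, and those of the combination in blocks 1 and 3. Median genes detected per cell lay between 6125.5 and 6630. Of 8 genes looked for as markers of a line of epithelial ovarian origin, only KRT18 and VIM were listed. KRT18 was detected in 23.9 to 36.5% and VIM in 62.5 to 86.8% of the cells of each condition. EPCAM, KRT8, KRT19, CDH1, CDH2 and PAX8 were not among the listed genes. No cell identity is read from these values.

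Expression is given as the E-value, log2(N/10 + 1). N stands for the TPM of a gene over the scaling factor of its cell, which is the TPM of the most abundant spike-in RNA in that cell divided by its mean over all cells. TPM accounts for transcript length, so levels can be set side by side between genes. Because spike-ins fix the scale, an E-value also follows the total RNA of the cell. Against the control median, the median total was lower by 0.99 on the log2 scale at 16 h and 0.64 after 48 h of paclitaxel. It was lower by 0.76 at 2 h and 1.52 after 16 h of celecoxib, and higher by 0.49 in the combination. Every difference was therefore also computed after rescaling each cell to the control median total ("same total per cell"). A gene was counted past the limit when its mean E-value differed by over 0.58, which is log2 of 1.5.

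The genes lie on chromosomes 22 (ATF4, chr22:39519695-39522683), 12 (DDIT3, chr12:57516588-57521737, minus strand), 15 (CHAC1, chr15:40952962-40956512) and 1 (SESN2, chr1:28259518-28282491). TRIB3 (chr20:362835-397559) and CEBPB (chr20:50190830-50192668) share chromosome 20, and CEBPG (chr19:33373685-33382686) and PPP1R15A (chr19:48872212-48876059) share chromosome 19, all hg38 in the GENCODE version 44 annotation. ATF4 with a C/EBP partner binds a composite element often written TTGCATCA. Both strands (TTGCATCA and TGATGCAA) were searched around the RefSeq starts. The stretches of 30 bases that hold it are shown because they include those of DDIT3, TRIB3 and CHAC1, the genes with the largest differences below, with the 8 letters in capitals, written 5′ to 3′ on the strand of the gene:
DDIT3, chr12:57520802-57520831, minus strand: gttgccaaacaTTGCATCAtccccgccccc
TRIB3, chr20:380881-380910, plus strand: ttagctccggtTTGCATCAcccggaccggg
CHAC1, chr15:40953251-40953280, plus strand: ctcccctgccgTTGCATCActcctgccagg
CEBPG, chr19:33374060-33374089, plus strand: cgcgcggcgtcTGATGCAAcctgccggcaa
SESN2, chr1:28260059-28260088, plus strand: cgggacccgggTTGCATCAactggcagccg

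Within 500 bases upstream of a RefSeq start, the letters stood in 4 of the 8 genes, against 1.18% of the 7984 listed genes that matched a RefSeq start. TRIB3 held 3 copies in the same 30-base stretch, repeated at chr20:380914-380943 and chr20:380947-380976, at −403, −370 and −337 from the start. Only 2 of the 7984 genes, TRIB3 included, held 3 or more copies there. The copy of DDIT3 began at −306 and that of CHAC1 at −209. In CEBPG the other strand matched, at −42 from a downstream start. Within 1000 bases on either side of a start, 5 of the 8 genes held a match, SESN2 being added at 552 bases after its start, and DDIT3 held a second copy 819 bases after its start, against 4.41% of all matched genes. In GENCODE version 44 the TRIB3 and CHAC1 copies overlapped, or lay within 15 bases of, an untranslated region and an exon of the same gene. The copies of DDIT3, CEBPG and SESN2 lay inside a transcript but outside its exons, and that of DDIT3 also inside a transcript of MBD6. No match was found near the starts of ATF4, CEBPB or PPP1R15A. A match is a description of letters, and binding was not measured.

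**Figure D1:**
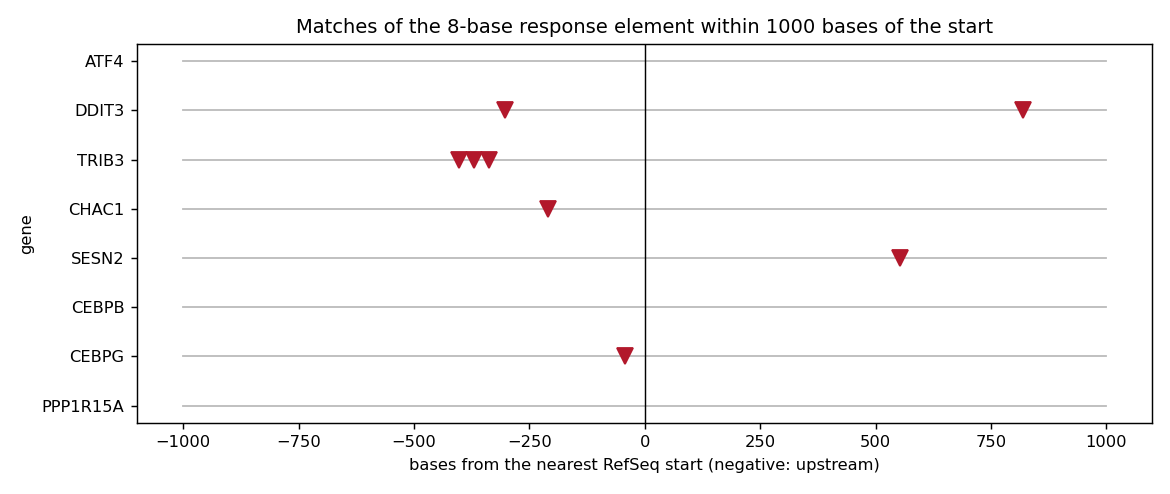
Positions of the 8-letter response element (triangles) within 1000 bases of the nearest RefSeq start, in bases, for each of the 8 genes; negative values are upstream. TRIB3 has 3 copies upstream, DDIT3, CHAC1 and CEBPG have 1 each, SESN2 has 1 and DDIT3 a second copy downstream, and ATF4, CEBPB and PPP1R15A have none.

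At the top of the arm, no mRNA of the kinases or of eIF2 itself was past the limit upward with a single drug on the spike-in scale. Of 4 eIF2 kinases, 3 were listed, and EIF2AK3 (PERK) was not analysed here. EIF2AK1, the heme-regulated kinase, had a mean E-value of 2.91 in control cells and differed from it by −0.50 and −0.33 after 16 and 48 h of paclitaxel and by −0.02 and −0.54 after 2 and 16 h of celecoxib. With the combination it was higher by 1.34. At the same total per cell the values after 2 and 16 h of celecoxib were 0.46 and 0.66, the latter past the limit upward, and that in the combination was 0.74. EIF2AK2, the double-stranded RNA kinase PKR, was lower by 0.61 after 16 h of paclitaxel and by 0.70 after 16 h of celecoxib, which became −0.24 and 0.17 at the same total. The 8 subunits of eIF2 and of its exchange factor eIF2B were past the limit downward in 5, 5, 5 and 8 cases in those 4 single-drug conditions, where 37.3%, 26.6%, 25.7% and 43.9% of all genes were down. Rescaled to the same total, 5, 3, 5 and 3 were down, against 13.2%, 8.08%, 10.9% and 10.1%. EIF2S2, the beta subunit, was then past the limit upward after 2 and 16 h of celecoxib, with 0.91 and 0.69. EIF2S1, the subunit that is phosphorylated, was furthest from control, lower by 2.71 after 16 h of celecoxib, and lower by 1.56 at the same total per cell.

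ATF4 was present in nearly every cell, with a control mean E-value of 4.51 ± 1.02 (SD over 46 cells). The lowest, median and highest control cells had 1.95, 4.54 and 6.34. After 16 h of paclitaxel they had 0, 3.94 and 7.43, and at 48 h 0, 4.36 and 6.84. The whole control range lay inside the range of both paclitaxel conditions. After 2 h of celecoxib the values were 0, 5.37 and 6.69, at 16 h 0, 4.39 and 5.91, and in the combination 0, 5.81 and 8.20. The conditions thus overlapped over most of their range, with the middle of the distribution highest in the combination and next after 2 h of celecoxib.

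Against control, ATF4 differed by −0.94 at 16 h and −0.56 after 48 h of paclitaxel, by 0.55 at 2 h and −0.15 after 16 h of celecoxib, and by 1.05 in the combination. Rescaled to the same total per cell, these became −0.30, −0.07, 1.10, 1.19 and 0.39. The direction after 16 h of celecoxib therefore changed with the scale, being slightly below control by spike-in and above it by share of the cell's RNA. The spread of ATF4 was widest with paclitaxel, where its SD was 1.78 at 16 h and 1.93 at 48 h. Among the 200 genes closest to it in mean, these SDs lay at percentile 96.5 and 99.0, and at percentile 51.0 in control.

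**Figure D2:**
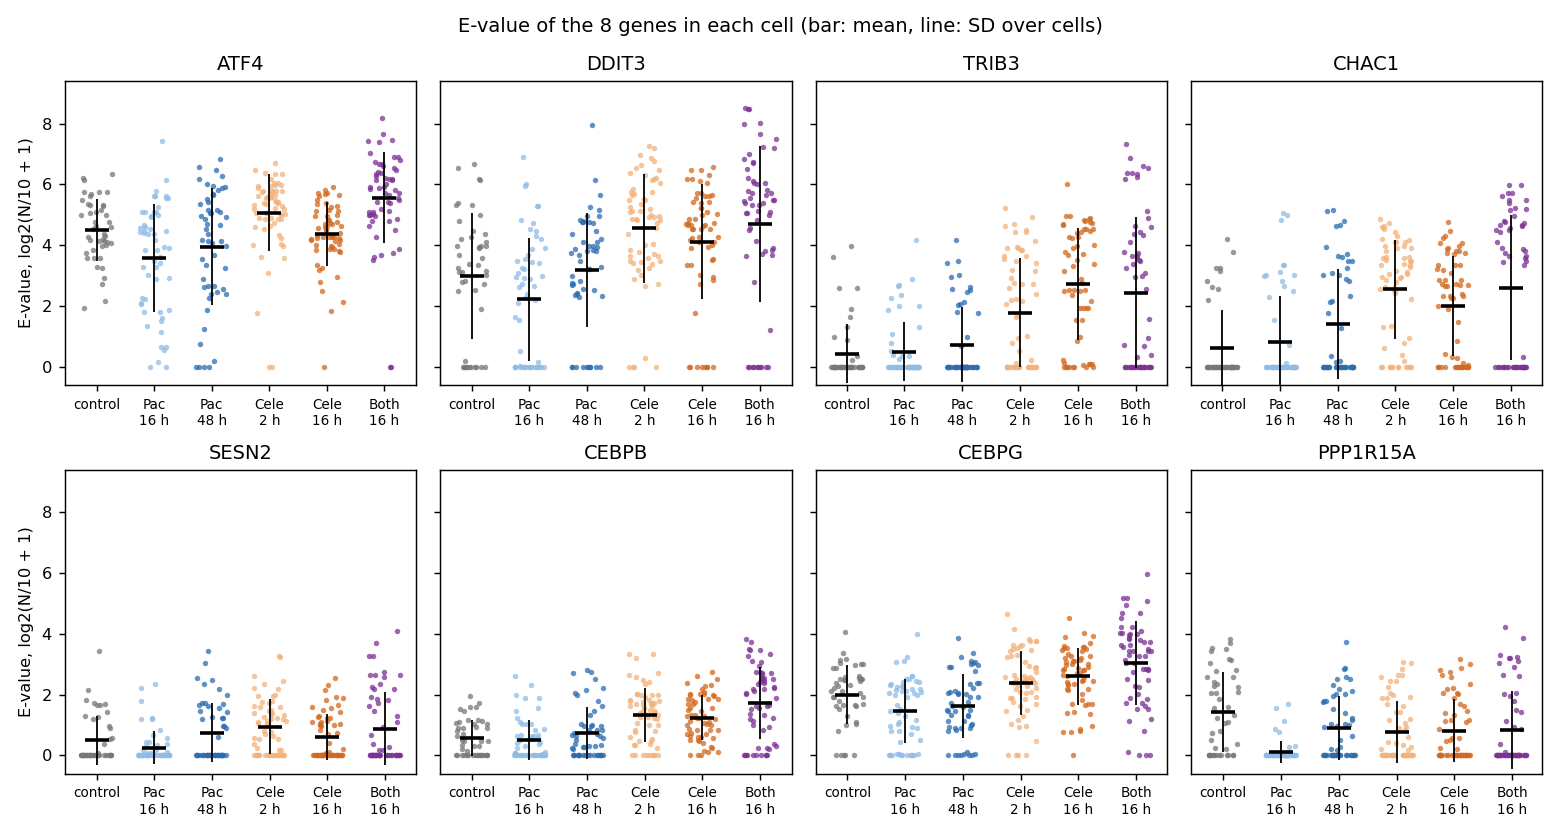
E-value, log2(N/10 + 1), of the 8 genes in each cell (points) of the 6 conditions, with the mean (bar) and SD over cells (line); Pac is paclitaxel, Cele celecoxib and Both the combination. DDIT3, TRIB3 and CHAC1 have cells at 0 in every condition and sit higher in the 3 conditions with celecoxib, while PPP1R15A is highest in control cells.

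DDIT3, the gene for the pro-apoptotic factor CHOP, was higher in all 3 conditions with celecoxib on both scales. Its lowest, median and highest cells were 0, 3.30 and 6.67 in control, 0, 2.52 and 6.90 after 16 h of paclitaxel, and 0, 3.69 and 7.97 at 48 h. With celecoxib they were 0, 4.92 and 7.25 at 2 h and 0, 4.63 and 6.56 at 16 h, and in the combination 0, 5.38 and 8.53. Cells without any DDIT3 were found in every condition, but their share differed. DDIT3 was detected in 76.1% of control cells (exact Clopper-Pearson 95% interval 61.2 to 87.4%, for counting error only), in 66.1% (52.2 to 78.2%) after 16 h of paclitaxel and in 93.7% (84.5 to 98.2%) after 2 h of celecoxib. From a control mean of 2.99, the differences were −0.77 and 0.19 after 16 and 48 h of paclitaxel, 1.56 and 1.12 after 2 and 16 h of celecoxib, and 1.71 in the combination. At the same total per cell they were −0.37 and 0.66 with paclitaxel and 2.10, 2.33 and 1.18 in the others, so that 48 h of paclitaxel was past the limit upward on that scale only and 16 h was no longer past it downward. In every condition the SD of DDIT3 lay at percentile 99.0 or higher among the 200 genes nearest in mean.

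TRIB3, a pseudokinase induced by ATF4 and CHOP that holds ATF4 activity back, went from near absence in most control cells to detection in most cells with celecoxib. It was detected in 23.9% of control cells (95% interval 12.6 to 38.8%) and in 30.4% and 30.2% after 16 and 48 h of paclitaxel. The shares were 60.3% (47.2 to 72.4%) at 2 h and 86.9% (75.8 to 94.2%) after 16 h of celecoxib, and 61.0% (47.4 to 73.5%) in the combination. The share was highest after 16 h of celecoxib, the condition with the lowest median total. Median genes detected per cell were 6630 in control, 6158 and 6329 after 2 and 16 h of celecoxib and 6129 in the combination. In control cells the lowest and median E-values were 0 and the highest was 3.96. The median was also 0 at both paclitaxel times, with a highest cell of 4.18 each time. After 2 h of celecoxib the median and highest cells were 1.65 and 5.24, at 16 h 2.89 and 6.01, and in the combination 2.57 and 7.32. The combination thus held the highest single cells while 23 of its 59 cells had no TRIB3. Mean differences from control were 0.06 and 0.30 with paclitaxel, 1.35 and 2.29 after 2 and 16 h of celecoxib, and 2.00 in the combination. TRIB3 stood at rank 3 of all genes after 16 h of celecoxib, and the ratio of its linear means to control was 11.8 there and 20.5 in the combination.

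CHAC1, an enzyme that breaks down glutathione, was higher than control in every treatment, and was the only one of the 8 past the limit after 48 h of paclitaxel on the spike-in scale. Its median cell was at 0 in control and in both paclitaxel conditions, at 3.06 and 2.33 after 2 and 16 h of celecoxib, and at 3.58 in the combination. The highest cells were 4.20 in control, 5.06 and 5.15 with paclitaxel, 4.87 and 4.76 with celecoxib and 5.99 in the combination. In the combination the 75th percentile was 4.69, above the highest control cell. It was detected in 19.6% of control cells (95% interval 9.36 to 33.9%), 28.6% and 47.2% (33.3 to 61.4%) after 16 and 48 h of paclitaxel, 81.0% (69.1 to 89.8%) and 72.1% after 2 and 16 h of celecoxib and 57.6% (44.1 to 70.4%) in the combination. The mean differences were 0.22, 0.80, 1.94, 1.39 and 1.99 in that order, and 0.31, 1.01, 2.37, 2.27 and 1.65 at the same total per cell. Taken over the median rather than the mean cell, the difference after 48 h of paclitaxel was 0.

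CEBPB and CEBPG, the C/EBP partners, were higher with celecoxib and, on the spike-in scale, highest in the combination. CEBPB had means of 0.58 in control, 0.51 and 0.75 after 16 and 48 h of paclitaxel, 1.34 and 1.24 after 2 and 16 h of celecoxib, and 1.74 in the combination. CEBPG had 2.01, 1.47, 1.63, 2.38, 2.60 and 3.05 in the same order. CEBPG was the more abundant of the pair in every condition. The CEBPB differences of 0.76, 0.66 and 1.16 in the 3 conditions with celecoxib were past the limit, while CEBPG passed it at 16 h (0.60, just over the limit) and in the combination (1.04). Rescaled to the same total, CEBPG had 0.83 and 1.84 with celecoxib and 0.51, within the limit, in the combination. Unlike DDIT3, both varied little between cells for their level, with SDs at or under percentile 21.0 among the 200 nearest genes in every condition. After 16 h of celecoxib CEBPB was detected in 95.1% of cells (95% interval 86.3 to 99.0%), against 65.2% (49.8 to 78.6%) in control.

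SESN2, a sestrin that restrains mTORC1 signalling when leucine is short, was the gene of the 8 with no difference from control past the limit on the spike-in scale. Its means were 0.50 in control, 0.26 and 0.74 after 16 and 48 h of paclitaxel, 0.95 and 0.61 after 2 and 16 h of celecoxib and 0.88 in the combination. The largest difference, 0.45 after 2 h of celecoxib, was past the limit at the same total per cell, with 0.70. It was detected in 37.0% of control cells and 68.3% (95% interval 55.3 to 79.4%) after 2 h of celecoxib.

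PPP1R15A, the stress-induced subunit that directs protein phosphatase 1 to eIF2, was highest in untreated cells, unlike the other 7 genes. Its lowest, median and highest cells were 0, 1.28 and 3.82 in control, 0, 0 and 1.69 after 16 h of paclitaxel, and 0, 0.28 and 3.75 at 48 h. The median was 0 after 2 and 16 h of celecoxib and in the combination, with highest cells of 3.08, 3.18 and 4.22. The shift was thus clearest after 16 h of paclitaxel, where the highest cell was also furthest below that of control. There it was detected in 12.5% of cells (95% interval 5.18 to 24.1%), against 69.6% (54.2 to 82.3%) of control cells. The difference from control was −1.32 after 16 h of paclitaxel, and −0.55, −0.67, −0.62 and −0.60 after 48 h of paclitaxel, 2 and 16 h of celecoxib and in the combination. The values at the same total per cell were −1.26, −0.34, −0.52, −0.07 and −0.73, so that only those after 16 h of paclitaxel and in the combination were past the limit on both scales. The spike-in value of the combination was −0.58, within the limit, without the 1 cell whose well was noted as 0. The catalytic subunit PPP1CA differed on the spike-in scale, in the same order, by −1.41, −0.96, −1.15, −1.43 and 0.37, and at the same total by −0.65, −0.35, −0.60, −0.08 and −0.32.

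Counted together, the 8 genes were past the limit upward in 0 and downward in 3 (ATF4, DDIT3 and PPP1R15A) after 16 h of paclitaxel, where 0.0932% of all genes were up and 37.3% down. After 48 h of paclitaxel 1 was up and 0 down, against 0.922% and 26.6%. After 2 h of celecoxib 4 were up (DDIT3, TRIB3, CHAC1 and CEBPB) and 1 down, against 1.12% and 25.7%, and at 16 h 5 up, with CEBPG added, and 1 down, against 0.383% and 43.9%. With the combination 6 were up and 1 down, in a background of 30.4% and 1.76%. The median difference over the 8 was −0.38, 0.18, 0.66, 0.63 and 1.11, and over all genes −0.41, −0.26, −0.26, −0.48 and 0.33. Nothing is read from these counts, since the genes were chosen on such contrasts, and all 5 comparisons share the control cells. The values nearest the limit were CEBPG after 16 h of celecoxib (0.60) and PPP1R15A in the combination (−0.60) just past it, and ATF4 after 2 h of celecoxib (0.55) and 48 h of paclitaxel (−0.56) just within it.

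At the same total per cell, 0 of the 8 were up and 1 down after 16 h of paclitaxel, against 1.89% and 13.2% of all genes. At 48 h 2 were up (DDIT3 and CHAC1) and 0 down, against 4.69% and 8.08%. After 2 h of celecoxib 7 were up, all but PPP1R15A, and 0 down, against 4.18% and 10.9%. After 16 h of celecoxib 6 were up and 0 down, against 8.87% and 10.1%, and in the combination 4 were up and 1 down, against 7.87% and 7.64%. DDIT3, TRIB3, CHAC1 and CEBPB were the 4 genes past the limit upward in all 3 conditions with celecoxib on both scales. The order of celecoxib 16 h and the combination turned with the scale for every gene of the 8 but TRIB3. CEBPG, for example, was higher by 0.60 and 1.04 on the spike-in scale and by 1.84 and 0.51 at the same total, while TRIB3 was higher after 16 h of celecoxib on both, by 2.29 and 2.00 and by 3.36 and 1.64.

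**Figure D3:**
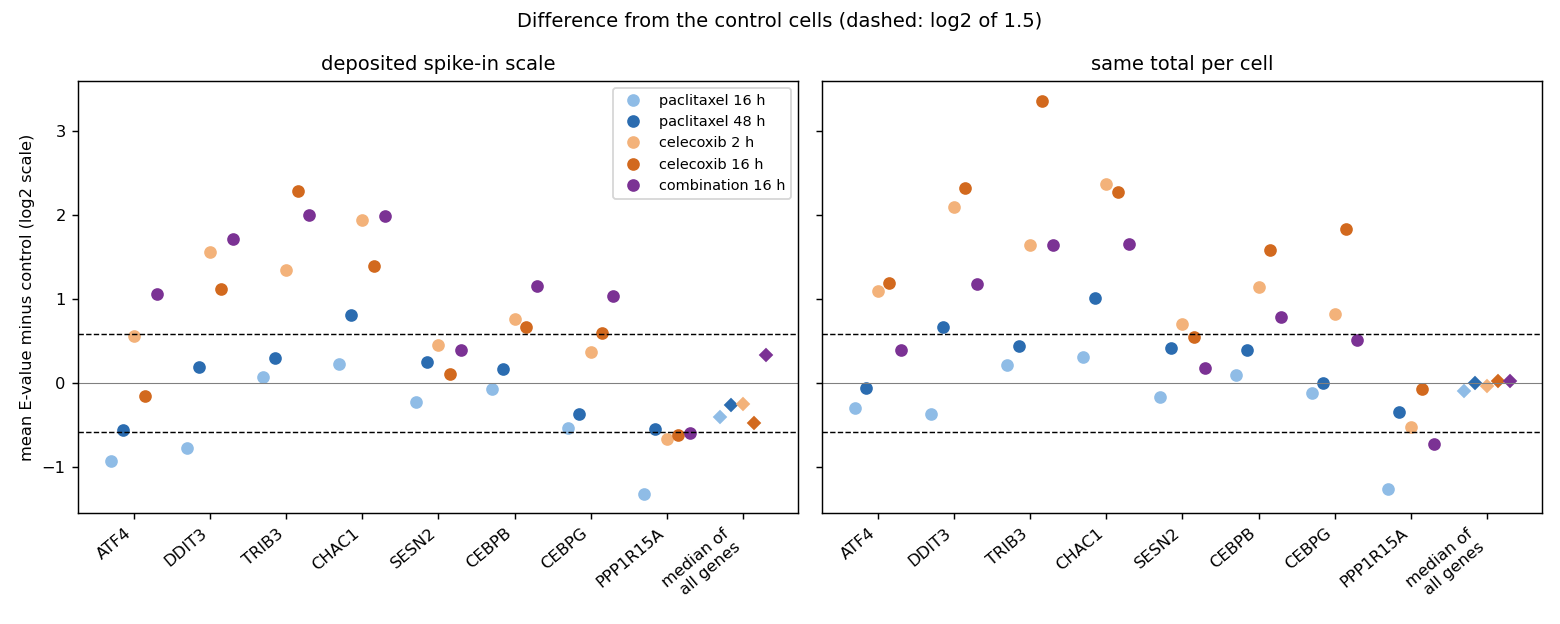
Mean E-value minus that of the control cells (log2 scale) for the 8 genes and the median of all genes, in the 5 treatments, on the deposited spike-in scale (left) and at the same total per cell (right); dashed lines mark log2 of 1.5. TRIB3 after 16 h of celecoxib is the highest point in both panels, at 2.29 and 3.36, and the combination lies above celecoxib 16 h for ATF4 on the left and below it on the right.

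Adding celecoxib to paclitaxel for 16 h went with more mRNA of all 8 genes on the spike-in scale. The median of all genes was also higher there, by 0.80, and SESN2 (0.62) and PPP1R15A (0.72) lay below that median. All 8 genes were past the limit upward in the combination against paclitaxel 16 h, and 0 downward, in a background of 62.5% and 0.0311% of all genes. DDIT3 was higher by 2.48, ATF4 by 1.99, TRIB3 by 1.93 and CHAC1 by 1.77. After rescaling to the same total per cell 6 were up, DDIT3 by 1.55, TRIB3 by 1.43 and CHAC1 by 1.34 among them, and 0 were down, against 13.0% and 2.11% of all genes. SESN2 (0.35) and PPP1R15A (0.53) then lay within the limit. In the combination cells of index block 1 alone, the block that the paclitaxel 16 h cells also carried, 7 of the 8 were up with a median of 1.59. The all-gene share was not computed for these cells, and over all combination cells it was 62.5%, so nothing is read from this count.

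With paclitaxel added to celecoxib for 16 h, no gene of the 8 was past the limit in the same direction on both scales. TRIB3 was lower on both, within the limit by spike-in. By spike-in, 3 genes were up (ATF4 by 1.21, DDIT3 and CHAC1 each by 0.59) and 0 down, in a background of 66.0% up and 0.0414% down. TRIB3 differed by −0.29 while the median gene was higher by 0.88, and it stood at rank 13 from the lowest of all genes. Once cells had the same total, 0 were up and 7 down, against 6.94% and 5.85% of all genes. TRIB3 was then lower by 1.73, CEBPG by 1.33, DDIT3 by 1.15 and ATF4 by 0.80. By the ratio of linear means, which weights the cells with most mRNA, all 8 were higher in the combination, from 1.43 times (PPP1R15A) to 2.78 times (ATF4). In the combination cells of index block 3 alone, the block shared with celecoxib 16 h, 4 genes were up by spike-in and the median was 0.57. The all-gene share was not computed for these cells either, and over all combination cells it was 66.0%.

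With time in celecoxib, the 8 genes parted. From 2 to 16 h TRIB3 was higher by 0.94 and ATF4 lower by 0.71 on the spike-in scale, the 1 gene up and the 1 gene down among the 8, where 0.528% of all genes were up and 19.4% down. CHAC1 (−0.55) and DDIT3 (−0.44) were lower within the limit, and CEBPG was higher by 0.22. At the same total per cell TRIB3 was higher by 1.72 and CEBPG by 1.01, and ATF4 differed by 0.10. TRIB3 was thus the 1 gene past the limit upward with time on both scales. From 16 to 48 h of paclitaxel, DDIT3 was higher by 0.97 and PPP1R15A by 0.77, the 2 genes up, with 0 down, in a background of 7.89% and 0.352%. CHAC1 lay just within the limit at 0.58. In the paclitaxel 48 h cells of index block 4, the block of the control cells, CHAC1 was higher than control by 0.79, and in those of block 2 by 0.83. ATF4 differed by −0.39 and −0.80 in those blocks.

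A single cell rarely showed the whole arm. The median number of the 8 genes detected was 5 in control cells, 4 and 5 after 16 and 48 h of paclitaxel, 7 at both celecoxib times and 6 in the combination. All 8 were detected in 3, 1, 5, 12, 11 and 5 cells. The mean E-value over the 8 genes was 1.63 ± 0.65 (SD over cells) in control, 1.18 ± 0.79 and 1.66 ± 0.85 with paclitaxel, 2.42 ± 0.83 and 2.31 ± 0.75 with celecoxib, and 2.72 ± 1.11 in the combination. The highest single cell, at 5.19, was a combination cell, and the lowest, at 0.07, a paclitaxel 16 h cell.

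Across the cells of a condition, the r values of the 8 genes with each other were mostly positive and low, with 20 to 26 of 28 pairs above 0. Pearson's r was taken at the same total per cell, over 46 to 63 cells, which share a condition and differ in depth, and is given without a test. Over the 28 pairs the median r was 0.15 in control, 0.23 and 0.24 with paclitaxel, 0.24 and 0.17 with celecoxib and 0.30 in the combination. The median r of the 8 genes with all genes was between 0.00 and 0.03. Between 7 pairs (control) and 16 pairs (combination) exceeded the 95th percentile of r of the 8 genes with all genes, which lay between 0.23 and 0.29. These are weak relations in sparse single-cell values, and a pair with many zeros rests on few cells.

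ATF4 and CHAC1 formed the pair with the highest mean over the 6 conditions, with r from 0.32 in control to 0.56 in the combination and a mean of 0.43. CHAC1 and CEBPB followed with a mean of 0.38, from 0.00 in control to 0.72 after 48 h of paclitaxel, the highest of all values. In that condition 23 cells had both mRNAs, 2 had only CHAC1 and 12 only CEBPB. ATF4 and CEBPG came next with 0.36, and reached 0.62 after 16 h of celecoxib, where TRIB3 and CEBPB had 0.64. ATF4 and DDIT3 were less closely tied, with r between 0.13 and 0.42. The 7 pairs of PPP1R15A had a median r of 0.20 in control, −0.06 and 0.12 after 16 and 48 h of paclitaxel, 0.17 and 0.07 after 2 and 16 h of celecoxib and −0.06 in the combination. The 21 pairs without it had 0.11 in control, between 0.24 and 0.32 with the single drugs, and 0.36 in the combination. PPP1R15A and DDIT3 had an r of 0.55 in control cells, in 28 cells with both, and between −0.07 and 0.17 in the treated conditions. After 16 h of paclitaxel PPP1R15A was detected in only 7 of 56 cells. Its pairs there rest on 2 (with CHAC1 or SESN2) to 7 cells (with ATF4) with both mRNAs, and 3 with DDIT3. A lower r there can therefore not be read as a looser relation.

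**Figure D4:**
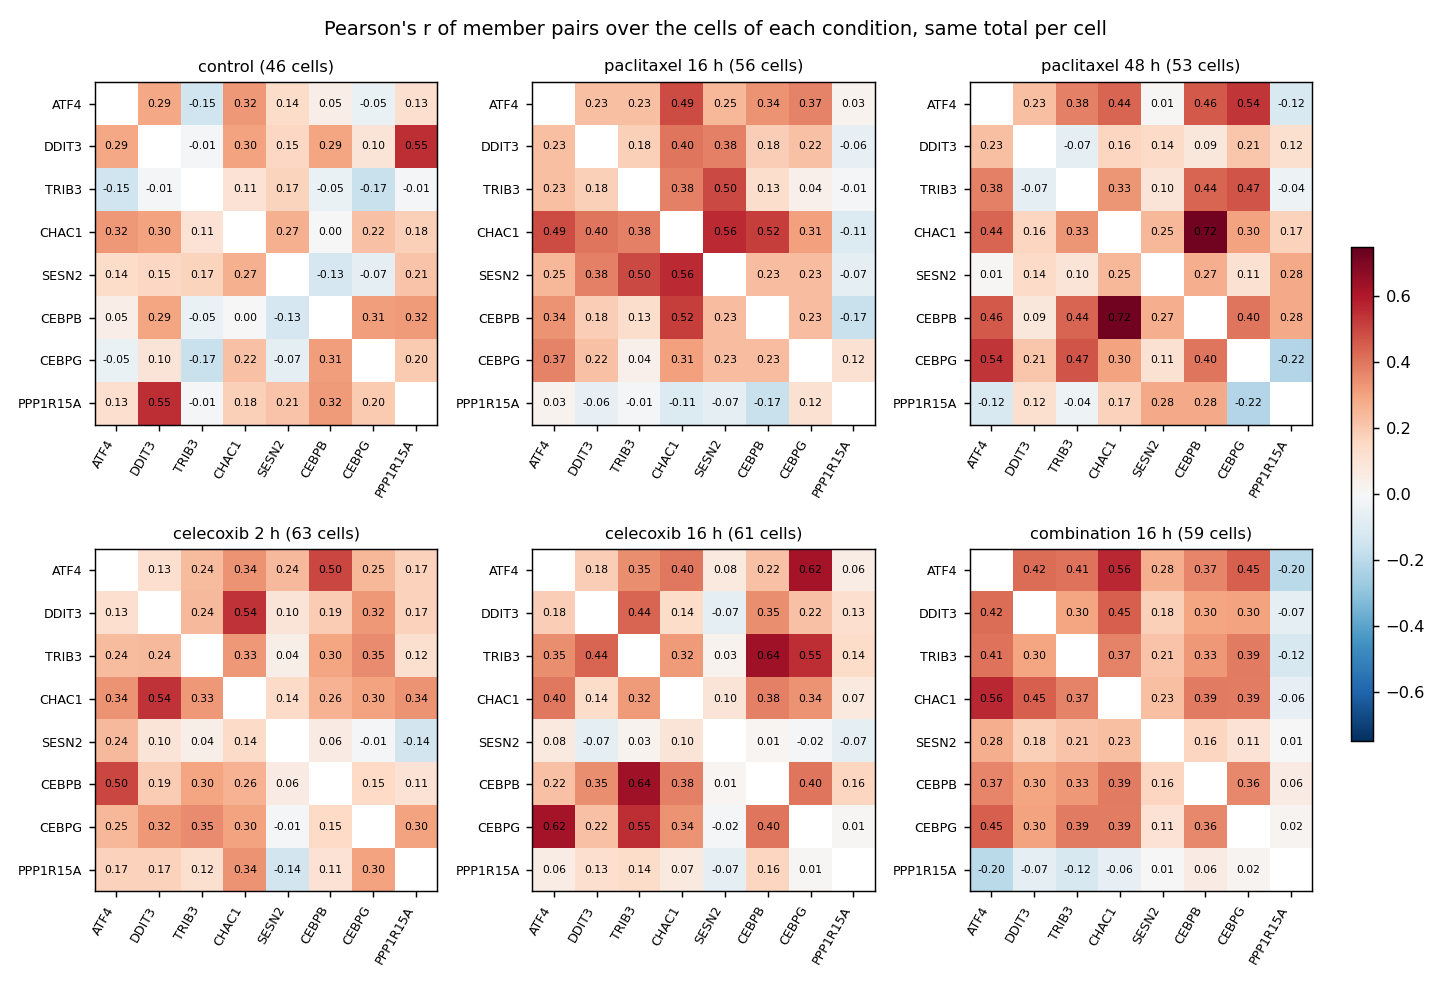
Pearson's r of each pair of the 8 genes over the cells of each condition, at the same total per cell (colour and printed value). PPP1R15A has −0.20 against ATF4 in the combination, and CHAC1 with CEBPB after 48 h of paclitaxel is the darkest square, at 0.72.

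The 3 genes most like each of the 8 were taken by the mean of r over the 6 conditions, among the 7570 or 7571 other genes that over 30% of cells expressed in each condition. TRIB3, CHAC1 and PPP1R15A fell short of that share in some condition and so could not be named as closest. CHAC1 had a higher mean r with ATF4 (0.43) and DDIT3 (0.33) than any gene that could. SLC3A2, the heavy chain of amino acid transporters, was among the 3 closest of ATF4 (0.40), CEBPB (0.35), TRIB3 (0.33) and CEBPG (0.33). EIF4EBP1, a repressor of cap-dependent translation, was among the 3 closest of CEBPB (0.38), ATF4 (0.37) and TRIB3 (0.35). CHAC1 was closest to DDIT4, an mTORC1 inhibitor, with 0.43, then to ATF4 and CEBPB. TRIB3 was also close to the seryl-tRNA synthetase SARS (0.32), CEBPG to ATF4 (0.36) and the mitochondrial folate enzyme MTHFD2 (0.32), and CEBPB to HAX1 (0.33). Of the genes that could be named, DDIT3 was closest to EIF1 and EIF1B (0.26 each) and GRPEL2 (0.25). Its r with EIF1 ran from −0.24 to 0.55 between conditions. EIF1 was also close to ATF4 (0.37). SESN2 was closest to DMKN (0.32) and ASMTL (0.28), the latter listed under 2 identifiers with the same values. PPP1R15A was closest to FOS (0.31), MSX1 (0.25) and JUND (0.24), none of which was among the closest genes of another member. FOS, an immediate early gene, had mean E-values of 4.46 in control, 1.31 and 3.88 with paclitaxel, 3.38 and 3.88 with celecoxib and 3.12 in the combination. Its lowest mean was thus after 16 h of paclitaxel, as for PPP1R15A. The 99th percentile of the mean r lay between 0.15 and 0.23 for the 8 genes.

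Further genes of the arm were followed as lists, described by counts and medians without a test. Of 20 ATF4 targets of amino acid supply, 19 were listed, and 0, 1, 9, 4 and 14 were past the limit upward after 16 and 48 h of paclitaxel, 2 and 16 h of celecoxib and in the combination, with 8, 2, 1, 3 and 0 downward. Of all genes 0.0932%, 0.922%, 1.12%, 0.383% and 30.4% were up and 37.3%, 26.6%, 25.7%, 43.9% and 1.76% down. Their median differences were −0.45, −0.07, 0.36, 0.10 and 1.15. At the same total per cell 0, 2, 11, 11 and 10 were up and 2, 0, 1, 0 and 0 down, with medians of −0.12, 0.19, 0.90, 0.96 and 0.76. The all-gene shares on that scale were 1.89%, 4.69%, 4.18%, 8.87% and 7.87% up and 13.2%, 8.08%, 10.9%, 10.1% and 7.64% down. ASNS, asparagine synthetase, had a mean E-value of 2.97 in control and was higher by 0.98 after 48 h of paclitaxel, 2.36 and 0.97 with celecoxib and 3.11 in the combination. PHGDH, the first enzyme of serine synthesis, was higher by 1.19 after 2 h of celecoxib and 2.34 in the combination, with −0.26 after 16 h of celecoxib, which turned to 1.07 at the same total per cell. The cystine transporter SLC7A11 went from 0.18 in control to 1.32, 1.20 and 1.33 in the 3 conditions with celecoxib, and the mitochondrial folate enzyme ALDH1L2 from 0.34 to 1.52, 1.34 and 2.12. ALDH18A1, which starts proline synthesis, was lower by 0.93 and 0.94 with celecoxib, and CBS by 0.81 at 16 h. After rescaling ALDH18A1 had −0.63 and −0.23 and CBS −0.20, so that of these only ALDH18A1 at 2 h was still past the limit.

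All 13 genes of the tRNA synthetase list were measured, with 4, 1 and 12 past the limit upward after 2 and 16 h of celecoxib and in the combination, and 0, 3 and 0 downward, beside 1.12%, 0.383% and 30.4% of all genes up and 25.7%, 43.9% and 1.76% down. The counts at the same total per cell were 11, 12 and 7 up and 0 down. Of all genes 4.18%, 8.87% and 7.87% were up on that scale and 10.9%, 10.1% and 7.64% down. SARS was higher by 0.66, 0.68 and 1.81, AARS by 0.97, 0.52 and 1.96 and CARS by 1.12, 0.47 and 1.11 in those conditions. After 16 h of paclitaxel 8 of the 13 were past the limit downward, against 37.3% of all genes, the tryptophanyl enzyme WARS by the most, with a difference of −1.57. After rescaling 1 was down, WARS with −1.13, against 13.2% of all genes.

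Of 18 other stress-induced targets 12 were listed, and ATF3, BBC3, BCL2L11, FGF21, PMAIP1 and VLDLR were not analysed here. The 12 had 0, 2, 6, 4 and 10 past the limit upward in the 5 treatments by spike-in, in the order used above, and 2, 5, 8, 10 and 6 at the same total. Downward there were 1, 1, 0, 0 and 0 by spike-in and 1, 0, 0, 0 and 0 at the same total, with the all-gene shares as given for amino acid supply. DDIT4 had a control mean of 1.40 and was higher by 0.47 and 1.63 with paclitaxel, 2.27 and 2.78 with celecoxib and 2.98 in the combination, and was past the limit at the same total per cell in all 5 treatments. GDF15, a secreted stress cytokine that p53 also induces, was higher by 2.72 after 48 h of paclitaxel, the highest difference of all genes in that condition, by 0.86 and 2.49 after 2 and 16 h of celecoxib and by 1.60 in the combination. NUPR1, a small stress-induced chromatin protein, went from 0.01 in control to 0.73, 1.04 and 0.73 with celecoxib and the combination. ATF5, a relative of ATF4, was higher by 0.63 and 0.40 after 2 and 16 h of celecoxib and 1.17 in the combination, and CCPG1, a receptor for autophagy of the endoplasmic reticulum, by 0.75, 0.94 and 1.76.

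The parallel IRE1 and ATF6 arms of the unfolded protein response, which act on chaperones and folding enzymes, gave other counts. Of their 18 genes, 0 were up with any single drug by spike-in, 11, 9, 5 and 9 were down, against 37.3%, 26.6%, 25.7% and 43.9% of all genes, and 12 were up in the combination, against 30.4%. Once cells had the same total, 4, 2, 2 and 3 were down with the single drugs, against 13.2%, 8.08%, 10.9% and 10.1%. In the combination 2 were down, against 7.64%. On that scale 1, 5 and 2 were up after 2 and 16 h of celecoxib and in the combination, against 4.18%, 8.87% and 7.87%. Their medians were −0.06, 0.22 and 0.21, beside −0.03, 0.02 and 0.02 over all genes. The 8 genes of the ATF4 and CHOP arm had 1.12, 1.71 and 0.65. They were chosen on such contrasts, so no difference between the arms is read from these medians. HSPA5, the chaperone BiP, differed by −0.36 at 2 h and −0.19 after 16 h of celecoxib by spike-in, and by 0.19 and 1.17 at the same total per cell. XBP1, the transcription factor whose mRNA IRE1 splices, differed by −0.13 and −0.52 by spike-in and by 0.34 and 0.69 at the same total, past the limit upward at 16 h. SDF2L1 was lower by 1.71 and 1.81, and CRELD2 by 1.29 after 2 h, and both were also past the limit downward there at the same total. The response element stood within 1000 bases on either side of a start in 1 of these 18 genes, against 4.41% of all matched genes. It stood there in 9 of 14 matched genes of amino acid supply (64.3%) and in 8 of 11 matched tRNA synthetase genes (72.7%). Within 500 bases upstream the counts were 0 of 18, 1 of 14 (7.14%) and 3 of 11 (27.3%), against 1.18%.

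**Figure D5:**
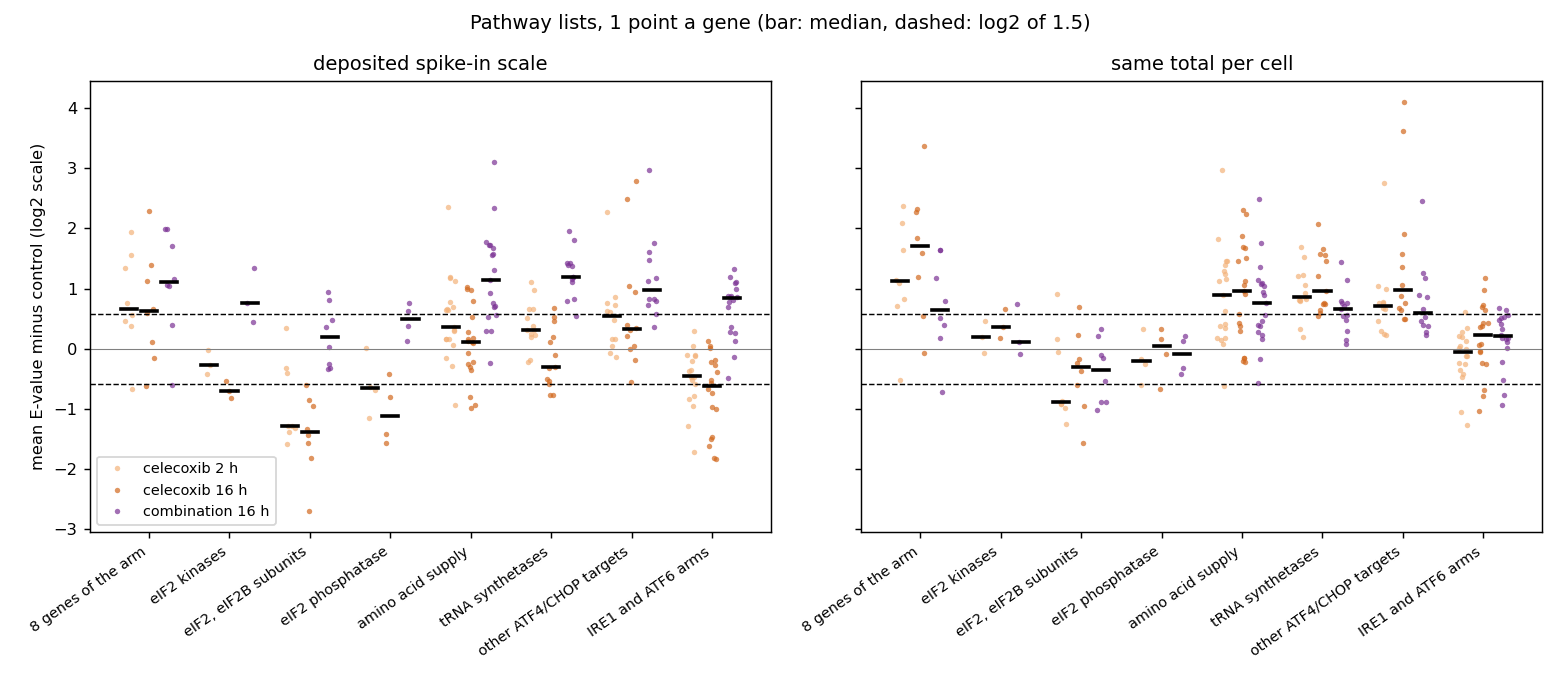
Mean E-value minus control (log2 scale) of each gene of the pathway lists (points), with the median of each list (bar), after 2 and 16 h of celecoxib and in the combination, on the deposited spike-in scale (left) and at the same total per cell (right); dashed lines mark log2 of 1.5. Amino acid supply genes and tRNA synthetases have medians of 0.90 and 0.85 after 2 h of celecoxib on the right, and the IRE1 and ATF6 genes −0.06.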

How the data were processed

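Reads were trimmed by the authors (Trim Galore), aligned with Bowtie2 to transcripts of GENCODE version 28 (hg38) with 3 spike-in RNAs added, and quantified as TPM by RSEM 1.3.0. They divided the TPM of each gene by that of the highest spike-in in its cell, taken relative to the mean of that spike-in over all cells, dropped cells with few housekeeping genes, and deposited log2 values, log2(N/10 + 1), for 9664 genes and 338 of 372 cells. The deposited table also holds the authors' state of each cell, which was not used. Read counts per cell are unknown, so depth is described by genes detected, and intervals cover counting error only.

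Here N was recovered from each value, mean E-values were compared between conditions, and cells were rescaled to the control median total. Members and lists were chosen with earlier results of these data known. Genes named beyond the members are genes of a list past the limit alike in at least 2 treatments, or by over 1 in 1 treatment, and the 3 genes closest to each member by mean r. Doublets were not called, since callers need counts. The response element was searched on hg38 at RefSeq starts (GRCh38.p14), matched by symbol, and positions are GENCODE version 44. Steps were tested on simulated data. Protein sequences were not used here. Computation used numpy 2.4.6, scipy 1.17.1 and pandas 2.3.3 in Python 3.11.15, and figures used matplotlib 3.10.9.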

Additional observations from a re-analysis of the deposited data

How the results depend on the processing

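The scaling mattered most. Counts are given as genes of the 8 past the limit, each against the count or median on the deposited scale. All-gene shares stand above for the deposited scale and, except in the comparisons with time, for the same total per cell. For the comparisons with time, the all-gene counts at the same total are given below. For the other settings none were computed, so those counts have no background beside them. At the same total per cell, paclitaxel 16 h had 1 down (3), paclitaxel 48 h 2 up (1), celecoxib 2 h 7 up (4) and 0 down (1), and celecoxib 16 h 0 down (1) with a median of 1.71 (0.63). ATF4 at celecoxib 16 h changed sign, from −0.15 to 1.19. The combination against paclitaxel 16 h had a median of 0.69 (1.67), and against celecoxib 16 h 0 up (3), 7 down (0) and a median of −0.80 (0.47). Paclitaxel 48 h against 16 h had 4 up (2), where 845 of all 9655 genes were up. Celecoxib 16 h against 2 h had 2 up (1), 0 down (1) and a median of 0.34 (−0.22). There 961 of all 9655 genes were up and 473 down. Relative to the median of all genes, paclitaxel 16 h had 1 up (0) and 1 down (3), celecoxib 2 h 7 up and 0 down, and celecoxib 16 h 0 down. The combination against paclitaxel 16 h then had 5 up (8) and a median of 0.87, and against celecoxib 16 h 0 up, 3 down and a median of −0.41, and celecoxib 16 h against 2 h had 0 down. As ratios of linear means, paclitaxel 16 h had 1 up, paclitaxel 48 h 4 up and 1 down (0), and paclitaxel 48 h against 16 h 6 up with a median of 0.75 (0.43). The combination had a log2 median of 2.49 against paclitaxel 16 h, and 7 up with 1.14 against celecoxib 16 h, and celecoxib 16 h against 2 h had 2 down. With a pseudocount of 1 normalized TPM, paclitaxel 48 h had 3 down, paclitaxel 48 h against 16 h 4 up with a median of 0.81, and celecoxib 16 h against 2 h 4 down. The combination then had a median of 2.34 against paclitaxel 16 h, and 1 up and 1 down against celecoxib 16 h. Over median cells, paclitaxel 48 h had 0 up and 1 down, paclitaxel 48 h against 16 h 1 up, and celecoxib 16 h against 2 h 3 down. Without the 1 combination cell whose well was noted as 0, the combination had 0 down (1) and, against celecoxib 16 h, 1 up. Index block 2 alone gave 2 down for paclitaxel 48 h, and block 1 alone 1 up for the combination against celecoxib 16 h. The cause was not tested. The other 225 of these summary values were within 1.5 times or the spread, the median r in each condition among them. Part of the 225 could not move. The detection filter does not enter the differences of the 8 genes, so changing it says nothing on their robustness. Leaving out the 1 combination cell likewise could not alter values without the combination. No paired analysis was possible because each condition is 1 sample. Zeros limit TRIB3, CHAC1, SESN2 and PPP1R15A: with an E-value above 1 in place of 0, TRIB3 was found in 15.2% of control cells and 73.8% at celecoxib 16 h.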
